A study of Mus musculus with 6 samples.

Results

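The spots described here lie over the hypothalamus of the mouse brain, as far as a score over 5 genes can place them. They come from spatial transcriptomics (ST, Visium) sections, in which each barcoded spot collects the polyadenylated RNA of a small patch of tissue holding several cells. The score of a spot was the sum, over Dlk1, Baiap3, Hap1, Gpx3 and AW551984, of the natural log of 1 plus its unique molecular identifiers (UMIs, tags that mark single captured molecules) per 10000 UMIs. Spots under the tissue mask with at least 1000 UMIs entered the rule, 13334 of 14524, and those at or above the 91st percentile of the pooled scores were kept. This left 1200 hypothalamus spots, 9.0% of the spots scored. The score was chosen on these same sections, so the levels of its genes, and the contrast of the chosen spots with all other spots, are descriptions that carry no test.

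All 6 mice were female and carried human APOE in place of the mouse gene by targeted replacement, either APOE3 (E3) or APOE4 (E4). Each genotype had a young mouse of 3 months, an aged mouse of 24 months and a mouse of 12 months that also carried the 5xFAD transgenes. 5xFAD mice express transgenes that include mutant human APP from the Thy1 promoter, which is active mainly in neurons, and accumulate amyloid. Each of the 6 groups was 1 coronal section of the right hemisphere from 1 brain, so genotype and condition cannot be told apart from mouse, section plane or slide within a single pair of sections, and 5xFAD against young also compares 12 with 3 months of age. No group without human APOE was analysed here, and the young sections are the controls of both condition contrasts.

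The hypothalamus is a small region at the base of the brain that governs feeding, body temperature, sleep, water balance, reproduction and the pituitary. It does so through many small nuclei, each with its own neuropeptides: melanin-concentrating hormone and hypocretin neurons sit in the lateral area, oxytocin and vasopressin neurons in the paraventricular and supraoptic nuclei, and neurons making pro-opiomelanocortin or growth hormone-releasing hormone in the arcuate nucleus. Which nuclei a coronal section holds depends on how far forward or back it was cut.

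The hypothalamus spots made up 187 of 2644 spots in E3 young (7.07%, exact binomial interval 6.12 to 8.12%), 192 of 2243 in E4 young (8.56%, 7.43 to 9.79%) and 188 of 2140 in E3 aged (8.79%, 7.62 to 10.1%). They made up 215 of 1445 in E4 aged (14.9%, 13.1 to 16.8%), 331 of 2540 in E3 5xFAD (13.03%, 11.7 to 14.4%) and 87 of 2322 in E4 5xFAD (3.75%, 3.01 to 4.60%). The share thus ran highest in E4 aged, which had the fewest spots, and lowest in E4 5xFAD. These intervals cover counting error only, and spots of a section are neighbours and not independent. The median depth of these spots lay between 15265 and 21669 UMIs per section and that of the other spots between 10569 and 15574, and within each of the 6 sections it was higher in the hypothalamus spots. Their summed UMIs ranged from 1833457 in E4 5xFAD to 5172009 in E3 5xFAD. Spot barcodes mark grid positions and recur in every section by design. The share of tissue positions with a barcode in the deposited matrix was 99.9% in E3 5xFAD, whose matrix header names another software version, and 75.9 to 86.0% in the other 5 sections, so this difference cannot be told apart from that group.

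The spots did not form a single area. In 5 sections they fell into 2 separate blocks of adjoining spots, plus 5 to 27 spots outside both, and in E4 5xFAD into a single block of 65 spots with 22 outside it. The blocks were told apart, after the data were seen, by the summed level of 18 hypothalamic markers that the score did not use (Pmch, Hcrt, Nkx2-1, Otp, Gal and others). Levels are given as CPM, the UMIs of a gene per 1000000 UMIs of the same spots in that section, and pairs of values are given with the E3 section first and the E4 section after it. The marker sum was 3023 to 15267 CPM in the block called marker-rich here, which held 83 (E3) and 125 (E4) spots in the young sections, 127 and 147 in the aged ones and 187 in E3 5xFAD. It was only 325 to 583 CPM in the second block, of 89, 40, 56, 63 and 120 spots in the same order. The label of hypothalamus is therefore kept for the marker-rich block. The second block scored high on the 5 genes with a low marker sum, although 10 to 14 of the 18 markers were detected in it. It is called by that name only, and its region was not determined.

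**Figure D1:**
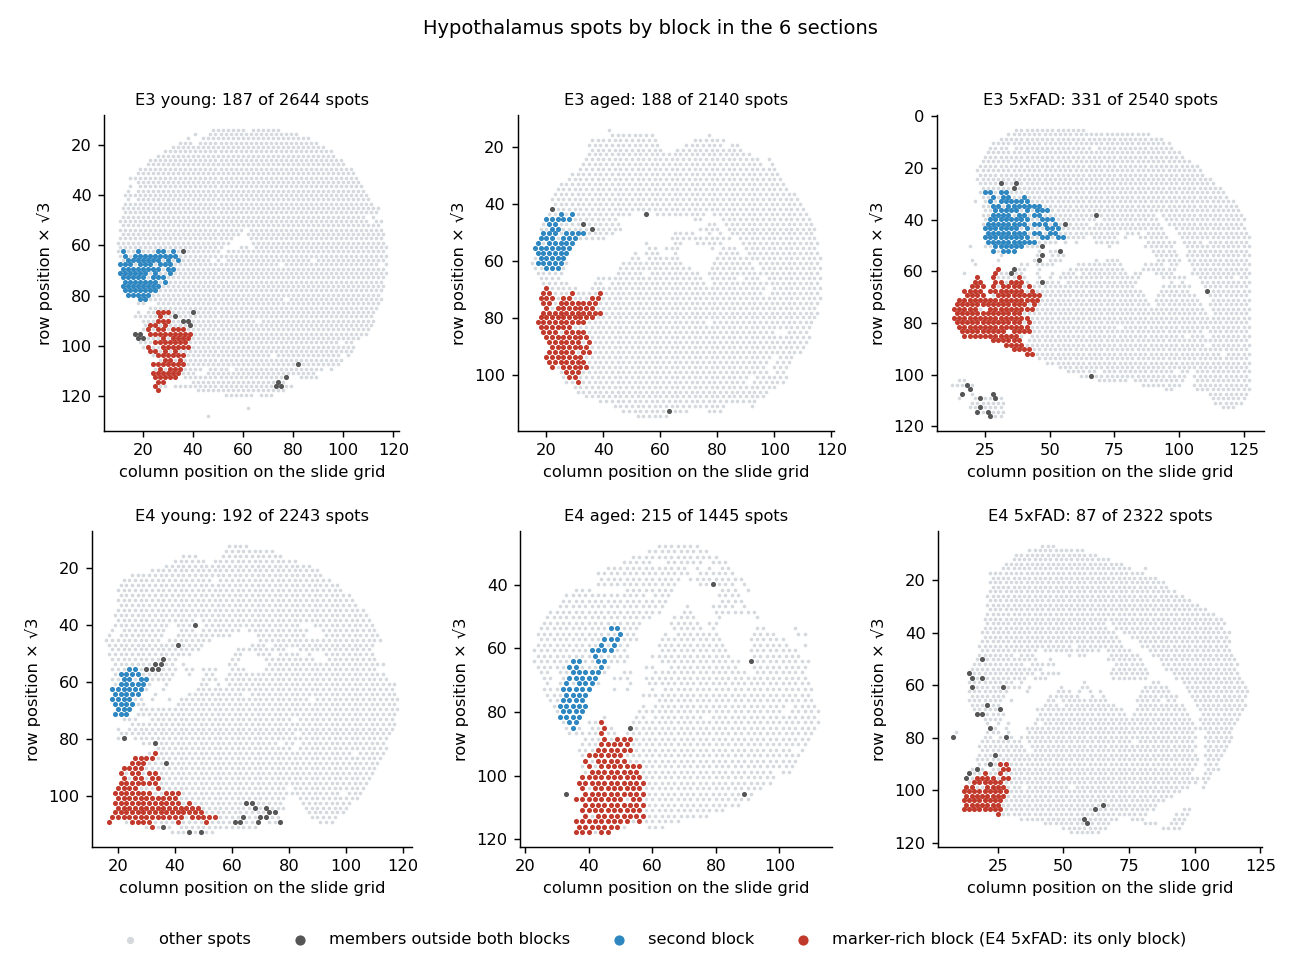
Map of the spots of each section by column and row position on the slide grid, with the marker-rich block in red, the second block in blue, members outside both in dark grey and all other spots in light grey. The 2 blocks lie apart in 5 sections, and E4 5xFAD holds a single block of 65 spots.

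The block of E4 5xFAD differed in kind from the marker-rich blocks. Its marker sum was 489 CPM, inside the range of the second blocks. The peptides that lead the other sections were nearly absent: Pmch, which encodes melanin-concentrating hormone, stood at 3.87 CPM there against 2469 to 11789 CPM in the other 5, and Hcrt, which encodes hypocretin, at 1.29 against 137 to 3485 CPM. Oxt, the oxytocin gene, stood at 4180.1 CPM against 0.416 to 154 CPM in the others, and Otp, a transcription factor of neuroendocrine neurons, at 151 against 27.03 to 105 CPM. The sections therefore hold different hypothalamic nuclei, and results below are given with and without E4 5xFAD where they rest on it.

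The 5 genes of the score, which chose the spots, were higher in them in every section. Hap1, which encodes huntingtin-associated protein 1, had 651 and 589.7 CPM in young, 725 and 696 in aged and 695 and 542 in 5xFAD, against 97.5 to 141 CPM in the other spots. Baiap3, a regulator of dense-core vesicle traffic, had 200.5 and 252 CPM in young, 258 and 254 in aged and 275 and 232 in 5xFAD, against 14.2 to 27.1 CPM. Dlk1, an imprinted gene for a membrane protein related to Notch ligands, had 123 to 228 CPM against 8.099 to 15.4 CPM. Gpx3, the secreted glutathione peroxidase, had 159.8 to 256 CPM against 14.6 to 24.6 CPM, and AW551984 had 132 to 172 CPM against 7.02 to 12.7 CPM. In the mm10 annotation Dlk1 lies on chromosome 12 from 109452823 to 109463336, Baiap3 on chromosome 17 from 25242659 to 25256364, Hap1 on chromosome 11 from 100347327 to 100356128, Gpx3 on chromosome 11 from 54902453 to 54910377 and AW551984 on chromosome 9 from 39587396 to 39604403, all of them protein coding.

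Of the 1200 spots, 737 held at least 1 UMI of all 5 score genes, 369 of 4, 77 of 3 and 17 of 2 or fewer. The threshold was a score of 4.03, the lowest score kept was 4.038 and the highest left out 4.032, with 96 spots within 0.25 above the threshold and 97 within 0.25 below it. The median score of the spots kept was 5.19 to 5.96 per section, against 0.749 to 1.05 in the other spots. In the second block the summed level of the 5 genes, 1403 to 1514 CPM, was within the 1159 to 1739 CPM of the marker-rich blocks and the E4 5xFAD block.

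Genes that the score did not use were also much higher in the hypothalamus spots, which is a description since the spots were chosen on the same libraries. Ranked by the median over 6 sections of the log2 ratio of CPM to that in other spots (0.5 CPM added to both), among genes of at least 20 CPM in these spots of every section, Otp led with 4.21 (3.74 to 5.06). It was followed by Gabrq, a GABA-A receptor subunit, at 3.68 (3.39 to 4.46), Irs4, an insulin receptor substrate, at 3.66 (3.34 to 4.398), and Trh, the gene of thyrotropin-releasing hormone, at 3.55 (2.84 to 4.498). Next came Arhgap36 at 3.498 (2.87 to 3.86), the neuroglobin gene Ngb at 3.29 (3.07 to 3.79), Cartpt, which encodes the feeding-related peptide CART, at 3.196 (1.84 to 4.04), Ecel1 at 3.04 (2.62 to 3.47) and the orphan receptor gene Gpr101 at 2.98 (2.81 to 3.67). The rest of the leading 20 were Magel2, Lbhd2, Nts, Igsf1, Itih3, Peg10, Apoc1, Resp18, Mrap2, Tmie and Zcchc12, with medians from 2.95 down to 2.22. At the other end stood Ttr, the transthyretin gene of choroid plexus, at -2.65 (-3.38 to -1.86), Slc17a7, the vesicular glutamate transporter of cortex, at -2.47 (-2.78 to -2.27), and the thalamic kinase gene Prkcd at -2.41 (-2.92 to -1.52).

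Imprinted genes, expressed from a single parental allele and known for a concentration in the hypothalamus, were prominent in the description. Of 38 listed imprinted genes of at least 5 CPM, 27 were higher in the hypothalamus spots than in the other spots in all 6 sections and 4 were lower in all 6, where 23.6% of all genes of that level were higher in all 6 and 26.3% lower. Dlk1 is among the 27, but the score used it, so its direction was fixed by the choice of spots. The others included the calcitonin receptor gene Calcr at log2 3.59 (3.37 to 3.95), Asb4 at 3.57 (2.699 to 4.24), Magel2 at 2.95 (2.597 to 3.62), Peg10 at 2.33 (1.97 to 2.998), Nnat at 1.93 (1.72 to 2.26) and Ndn, the necdin gene, at 1.901 (1.43 to 2.09). Of 26 genes of peptide secretion, 13 were higher in all 6 sections and 6 lower, among them the granin genes Scg2 at 1.696 (1.59 to 1.99) and Vgf at 0.65 (0.56 to 1.12) and the prohormone convertase gene Pcsk1 at 1.13 (0.82 to 1.71). GABA neuron genes were higher, Gad2 at 1.45 (1.11 to 1.78) and the vesicular GABA transporter gene Slc32a1 at 1.45 (1.04 to 1.598). Among receptors for hormones and peptides, 15 of 30 were higher in all 6 and 6 were lower in all 6, the higher ones including Tacr3 at 2.47 (2.08 to 2.89), Brs3 at 2.46 (2.12 to 3.86), Esr1, the estrogen receptor gene, at 2.18 (1.12 to 2.77) and Mc3r at 1.68 (0.88 to 2.14). Immediate early genes, which neurons switch on after activity, ran the other way, with 21 of 24 lower in all 6 sections.

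Peptides set the 2 blocks and the sections apart. Pmch had, in all hypothalamus spots, 2895 and 1769 CPM in young, 7556 and 4769 in aged and 3918 and 3.27 in 5xFAD. The 5 sections other than E4 5xFAD are high, and 64.2% to 81.8% of all Pmch UMIs of those sections fell in the hypothalamus spots. In the second block it had 47.4 to 216 CPM. Hcrt had 598 and 95.2 CPM in young, 1276 and 2501 in aged and 2176 and 1.09 in 5xFAD, low in E4 young as well as E4 5xFAD, with 60.2% to 87.8% of the section's UMIs in these spots outside E4 5xFAD. In E4 young only 4 spots held 10 or more Hcrt UMIs, against 89 in E4 aged and 89 in E3 5xFAD.

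Oxt had 75.1 and 0.283 CPM in young, 3.24 and 3.48 in aged and 96.9 and 3593 in 5xFAD. E4 5xFAD is far above the rest: 28 of its hypothalamus spots held 10 or more Oxt UMIs, and the highest single spot held 854. Avp, the vasopressin gene, had 209 and 2.83 CPM in young, 0.648 and 3.97 in aged and 32.1 and 359.5 in 5xFAD, high in E3 young and E4 5xFAD and lowest in E4 young and both aged sections. Pomc was highest in E3 5xFAD at 84.7 CPM, against 9.82 to 19.8 CPM elsewhere, and Ghrh, the growth hormone-releasing hormone gene, ran from 4.53 CPM in E4 young to 88.2 in E3 5xFAD.

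**Figure D2:**
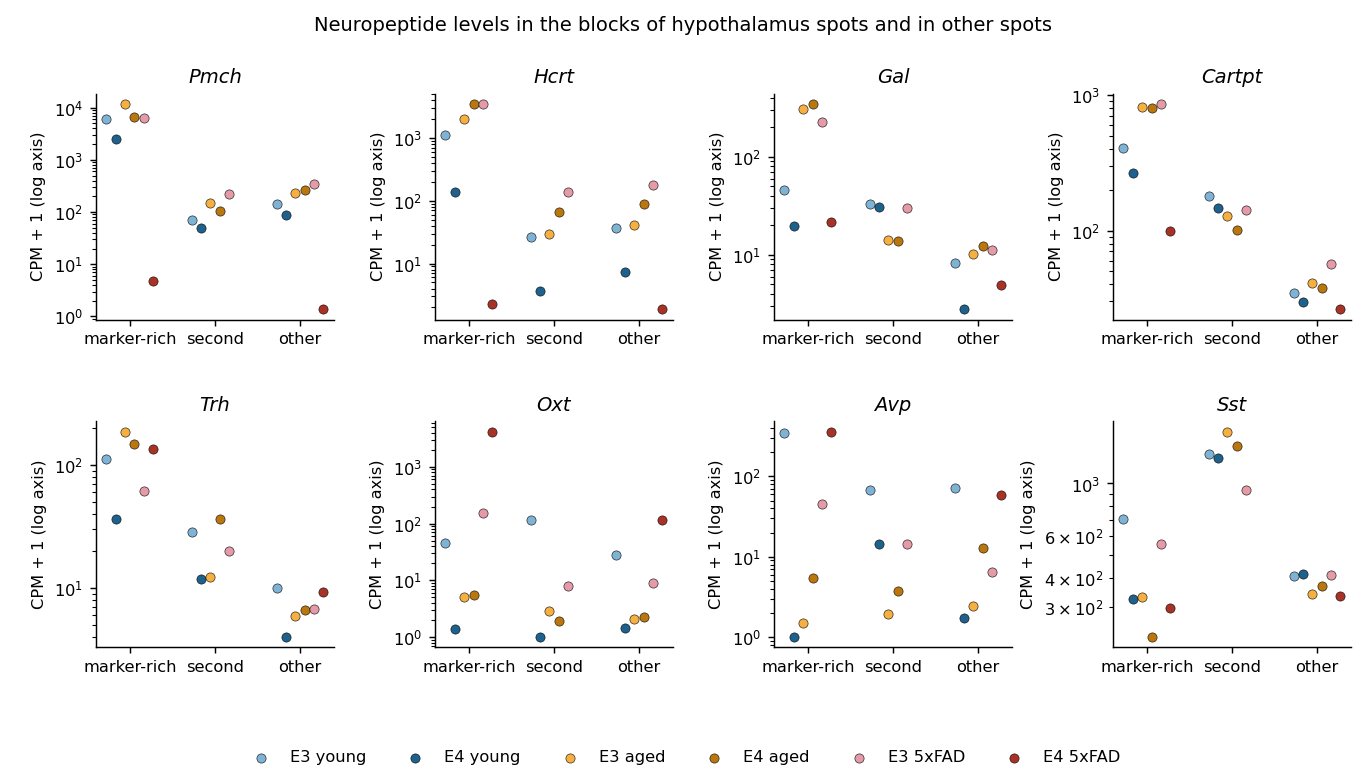
Levels of 8 neuropeptide genes as CPM + 1 on a log axis, 1 point per section, in the marker-rich block (for E4 5xFAD its only block), the second block (absent in E4 5xFAD) and all other spots. Pmch and Hcrt are high in the marker-rich block of 5 sections and near the bottom of the axis in E4 5xFAD, Oxt is the reverse, and Sst is high in the second block.

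The second block had its own leading peptides. Sst, the somatostatin gene, had 1327 and 1282 CPM in young, 1655 and 1446 in aged and 942 in E3 5xFAD there, against 223 to 706 CPM in the marker-rich and E4 5xFAD blocks. Penk, the enkephalin precursor, had 454 to 593 CPM against 119.7 to 283 CPM, and Npy had 174 to 277 CPM against 36.8 to 76.2 CPM. How many of all genes separate the blocks in this way was not counted, so these values are a description. The transcription factor genes Meis2 (78.7 to 192 CPM against 13.2 to 94.2 CPM) and Lhx6 (12.3 to 32.5 CPM against 0.645 to 9.15 CPM) were higher in the second block within each of the 5 sections that had both.

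Some transcription factors of hypothalamic development followed the blocks, but the list of 49 as a whole did not. In the marker-rich block the list summed to 646 and 498 CPM in young, 477 and 571 in aged and 517 in E3 5xFAD. In the second block it summed to 552 and 638 CPM in young, 591 and 628 in aged and 590 in E3 5xFAD. Nkx2-1, which marks the tuberal hypothalamus, had 12.3 and 14.1 CPM in young, 25.5 and 20.1 in aged and 25.1 and 0 in 5xFAD in the marker-rich or only block, and 0 to 2.28 CPM in the second block. Isl1, a factor of arcuate neurons, had 7.48 to 41.3 CPM against 2.28 to 4.54 CPM. Hmx2 stood at 12.2, 14.2 and 13.97 CPM in E3 aged, E4 aged and E3 5xFAD and at 0 to 2.74 CPM in the other 3. Over lists, the 11 anterior markers summed to 4929.8 CPM in the E4 5xFAD block, to 670.4 in E3 young and to 99.4 to 372 in the other 4.

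Differences between conditions and genotypes were tested on UMIs summed over the hypothalamus spots of each section, 1 sum per section, with edgeR's quasi-likelihood test. Those 1200 spots include 368 in the second block and 98 outside the blocks, and in the results of these tests hypothalamus stands for all of them. The model held genotype and condition as additive terms, so the 6 sections left 2 residual degrees of freedom, and the Benjamini-Hochberg adjustment ran over 12790 genes without the 5 of the score. A second fit tested whether each effect differed from that in the other spots of the same sections. Fold changes are log2 values with the standard error of the fit. In spots of mixed cells, more cells of a type and more RNA per cell cannot be told apart.

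In the hypothalamus spots of the 5xFAD sections, human APP, the astrocyte gene Gfap, 10 of 29 tested genes of the microglial amyloid response and 4 of 11 complement genes were higher than in young sections, while 3 of 10 ependymal and 3 of 14 thalamic marker genes were lower. The other genes of these lists did not pass. In all, 40 genes passed at an adjusted p of 0.05, 0.313% of those tested, with 26 higher (0.203%) and 14 lower (0.109%). All but Gm47283 went the same way in both genotypes. All 40 kept their sign when the E4 5xFAD section was left out, and also in the marker-rich block of the 5 other sections. In both of these fits the 5xFAD effect rests on E3 5xFAD alone, with 1 residual degree of freedom, so a call there is no check by a further section. The number called rose in each fit that left out 1 section: 86 without the E3 and 56 without the E4 young section, 61 and 88 without the E3 or E4 aged one, and 192 and 133 without the E3 or E4 5xFAD one, with 25 of the 40 called in all 6 of them. DESeq2 called 21 genes.

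Human APP, which the transgene carries, had 0 UMIs in the 4 sections without it, 37.3 CPM in E3 5xFAD (193 UMIs) and 33.8 in E4 5xFAD (62 UMIs). Against a floor of 3 UMIs over both young sections it was at least 78.01-fold higher. Thy1, whose promoter and flanking sequence drive the transgenes, had 709 and 629.9 CPM in young, 597 and 602 in aged and 1921 and 1927 in 5xFAD (log2 1.47 ± 0.11, adjusted p = 1.9e-05). Both genes follow the labels of all 6 sections. DESeq2 did not call human APP (adjusted p = 1.0). In E3 5xFAD the second block had more of each than the marker-rich block: 61.3 against 21.6 CPM of human APP and 2811 against 1359 of Thy1.

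Microglia, the resident immune cells of the brain, take on a disease-associated state around amyloid plaques that depends on the receptor TREM2. Of 29 tested genes of that state, 10 rose in the hypothalamus spots of 5xFAD and none fell, with a median log2 change of 0.61 beside 0.00 over all genes. Cst7, the cystatin F gene, had 0 UMIs in both young sections, 3.24 and 3.73 CPM in E3 and E4 aged, and 11.99 and 19.1 in E3 and E4 5xFAD. Against the floor of 3 UMIs it was at least 34.1-fold higher in 5xFAD (adjusted p = 0.00023, edgeR). Both 5xFAD sections lie above both aged sections.

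Trem2 had 18.7 and 17.6 CPM in young, 25.6 and 36.3 in aged and 45.1 and 72.6 in 5xFAD (log2 1.601 ± 0.18, adjusted p = 0.00053). Its signalling partner Tyrobp had 38.4 and 40.2 CPM in young, 75.2 and 66.6 in aged and 104 and 132 in 5xFAD (log2 1.51 ± 0.14, adjusted p = 9.2e-05). For both genes the 5xFAD sections are above every other section. Lyz2, the lysozyme gene of phagocytes, had 7.87 and 5.95 CPM in young, 26.6 and 30.3 in aged and 37.9 and 42.6 in 5xFAD (log2 2.48 ± 0.21, adjusted p = 4.9e-05), and the 4 aged and 5xFAD sections all lie above the young ones.

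The lysosomal protease genes Ctsz, Ctss and Ctsd, Cd68, Mpeg1, the chemokine gene Ccl6, Fcer1g and Csf1r, the receptor that microglia need to survive, were also called, at log2 changes from 0.798 for Csf1r to 2.45 for Ccl6. Ctsd, the cathepsin D gene, had 324 and 323 CPM in young, 429.6 and 409 in aged and 542 and 698 in 5xFAD. Of 15 homeostatic microglial genes 2 were called, both higher, with a median of 0.44. Of 4 tested MHC class II genes, which present antigen, Cd74 was called, at 9.82 to 10.8 CPM in 5xFAD against 1.42 to 2.62 CPM in young. DESeq2 called Ctsz, Ctss, Ctsd and Mpeg1 too, but not Cd68, Ccl6, Fcer1g, Csf1r or Cd74 (adjusted p from 0.18 to 0.73).

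Of 11 tested complement genes, 4 rose: C1qa, C1qb and C1qc, which form the first component of the cascade, and C4b. C1qa had 71.2 and 39.9 CPM in young, 95.2 and 105 in aged and 144 and 136 in 5xFAD (log2 1.29 ± 0.17, adjusted p = 0.0021). C4b had 19.03 and 12.2 CPM in young, 46.97 and 48.9 in aged and 42.9 and 63.8 in 5xFAD (log2 1.67 ± 0.22, adjusted p = 0.0019), with both aged sections between the 5xFAD ones. Of 18 reactive astrocyte genes, 2 rose, C4b again and Gfap, the filament of astrocytes, which had 43.3 and 32.6 CPM in young, 71.6 and 78.5 in aged and 82.2 and 142 in 5xFAD (log2 1.45 ± 0.201, adjusted p = 0.0025). Gfap was not called by DESeq2 (adjusted p = 0.15), nor with the threshold set within each section (0.29). Serpina3n, another reactive astrocyte gene, had 18.05 and 118 CPM in young, 64.5 and 209 in aged and 63.6 and 94.4 in 5xFAD and did not pass (log2 0.52 ± 0.300, adjusted p = 0.76): it was higher in 5xFAD in the E3 pair and lower in the E4 pair. None of 14 tested interferon response genes and none of 14 MHC class I genes passed, at medians of 0.31 and 0.29.

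Outside the immune lists, Ndn, an imprinted gene that is highly expressed in the hypothalamus, had 1087 and 1031 CPM in young, 1251 and 1261 in aged and 1696 and 1763 in 5xFAD (log2 0.65 ± 0.11, adjusted p = 0.015), the only 1 of 39 tested imprinted genes to pass. Nme7 had 64.3 and 64.6 CPM in young, 59.6 and 54.2 in aged and 133 and 143 in 5xFAD and Wasf3 had 115 and 84.4 CPM in young, 93.6 and 79.5 in aged and 248 and 184 in 5xFAD, both called and both higher in the 5xFAD sections outside the hypothalamus too (log2 1.06 and 0.79). In the fit that included E4 5xFAD, none of 30 neuropeptide genes and none of 33 transcription factor genes of the hypothalamus passed in either direction. This did not hold without that section, where some genes of both lists passed in each direction. The median 5xFAD change of the neuropeptide list was 0.02 with E4 5xFAD and 0.20 without it. In the marker-rich block of the other sections it was 0.62. For the transcription factor list the medians were 0.14, 0.05 and -0.02 in the same order. Human APOE did not pass in the fit that included E4 5xFAD, at 971 and 949 CPM in young, 996 and 1119.6 in aged and 1101 and 1134 in 5xFAD (log2 0.16 ± 0.11, adjusted p = 0.81).

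Among the genes that fell were 3 of 10 ependymal genes, of the ciliated cells lining the ventricle (Tmem212, Ccdc153 and Dynlrb2), and 3 of 14 thalamus markers (Ramp3, Synpo2 and Tcf7l2). The summed level of the ependymal list was 56.7 to 57.8 CPM in 5xFAD, 70.3 to 73.8 in aged and 78.4 to 226 in young, and that of the thalamus list 750.1 to 1005, 763 to 845 and 1163 to 1180 CPM. Both lists thus move with condition, and their part in these results was not tested. DESeq2 called Tmem212 and Ccdc153 as well, but not Dynlrb2 or any of the 3 thalamus markers. The nuclear RNA Malat1 fell by 1.03 on the log2 scale (adjusted p = 0.0031, edgeR), from 242 to 267 CPM in young to 92.7 to 167 CPM in 5xFAD. DESeq2 did not call Malat1 (adjusted p = 0.18). The summed level of the 13 mitochondrially encoded genes was lowest in E4 5xFAD, at 87351 CPM, against 106078 to 130906 in the others. Alb and Mup20, transcripts typical of liver, were at 0 to 0.193 CPM and 0 to 0.193 CPM in 5xFAD and reached 14.1 and 7.45 CPM in E3 young and E3 aged.

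For 9 genes the 5xFAD change was smaller or more negative in the hypothalamus than elsewhere in the same sections. The test of the difference between the 5xFAD effect in hypothalamus spots and that in all other spots called 10 genes, 0.0646% of 15469, with 9 of them negative (0.0582%) and 1 positive (0.00646%). Trem2 differed by log2 -1.18 ± 0.18 (adjusted p = 0.02, edgeR): its 5xFAD change was 1.601 in the hypothalamus and 2.796 in the other spots, where it had 20.7 and 20.4 CPM in young, 30.7 and 30.7 in aged and 125 and 178 in 5xFAD. Tyrobp differed by -1.196 ± 0.14 (adjusted p = 0.0012, edgeR). C4b differed by -1.36 ± 0.197 (adjusted p = 0.01), Ctsd by -0.73, H2-D1, an MHC class I gene, by -0.77 and the interferon-induced gene Ifi27l2a by -2.302. Vim, the vimentin gene of reactive astrocytes and ependyma, had 21.9 to 24.00 CPM in 5xFAD hypothalamus against 28.5 to 43.3 CPM in young, and 42.1 to 56.1 CPM against 25.6 to 32.4 CPM in the other spots. Of these 7 genes, Trem2, Tyrobp, C4b, Ctsd, Ifi27l2a and Vim kept their call without E4 5xFAD, and H2-D1 did not (adjusted p = 0.11, edgeR). In the marker-rich block of 5 sections Ifi27l2a, Vim and H2-D1 were not called. DESeq2 called the difference of Tyrobp, C4b, Ctsd and Thy1 alone.

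Thy1 differed by -0.98 ± 0.11 (adjusted p = 0.00093, edgeR), and it reached 3975 and 5447 CPM in the other spots of E3 and E4 5xFAD. Human APP was lower in the hypothalamus too, as a value, at 37.3 and 33.8 CPM against 68.6 and 94.9. Both the transgene level and the 5xFAD change of Trem2 and Tyrobp were thus lower in the hypothalamus than in the other spots. Between the blocks the order varied by gene. The second block of E3 5xFAD had more human APP than the marker-rich block, as above. The 5xFAD change in the second and the marker-rich block of 5 sections was 1.35 and 1.33 for Trem2 and 1.29 and 1.19 for Tyrobp. It was 1.602 and 2.84 for Lyz2 and 0.74 and 1.18 for C1qb. The part of the transgene level was not tested. Pmch (lower) and Oxt (higher) were the other 2 genes called. In E4 5xFAD their levels stood apart from those of the other 5 sections, as above, but without that section the differences were -1.02 and 2.14. In fits of 5 sections they were -1.26 and 3.54 for the marker-rich block and 0.19 and -2.30 for the second block. Leaving out 1 section at a time gave 13 to 44 genes: 20 without the E3 and 13 without the E4 young section, 33 and 44 without the E3 or E4 aged one, and 38 and 16 without the E3 or E4 5xFAD one.

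Over lists, the same direction held as a description. The genes of the disease-associated microglial state had a median 5xFAD change of 0.61 over the 29 tested in the hypothalamus and 1.79 over the 35 tested in the other spots, where 24 were called higher beside 0.932% of all genes. Gene by gene, the hypothalamus change minus that of the other spots had a median of -0.73 over 35 genes of that state, with 30 of them below 0. The same median was -0.87 over 19 interferon response genes, -0.59 over 16 MHC class I genes, -0.74 over 24 reactive astrocyte genes and -0.81 over 15 complement genes, beside 0.01 over all genes. The other spots called 178 genes in all, 1.09% of 16305. They include cortex and hippocampus and rest on far more UMIs, so the numbers of calls are not comparable.

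**Figure D3:**
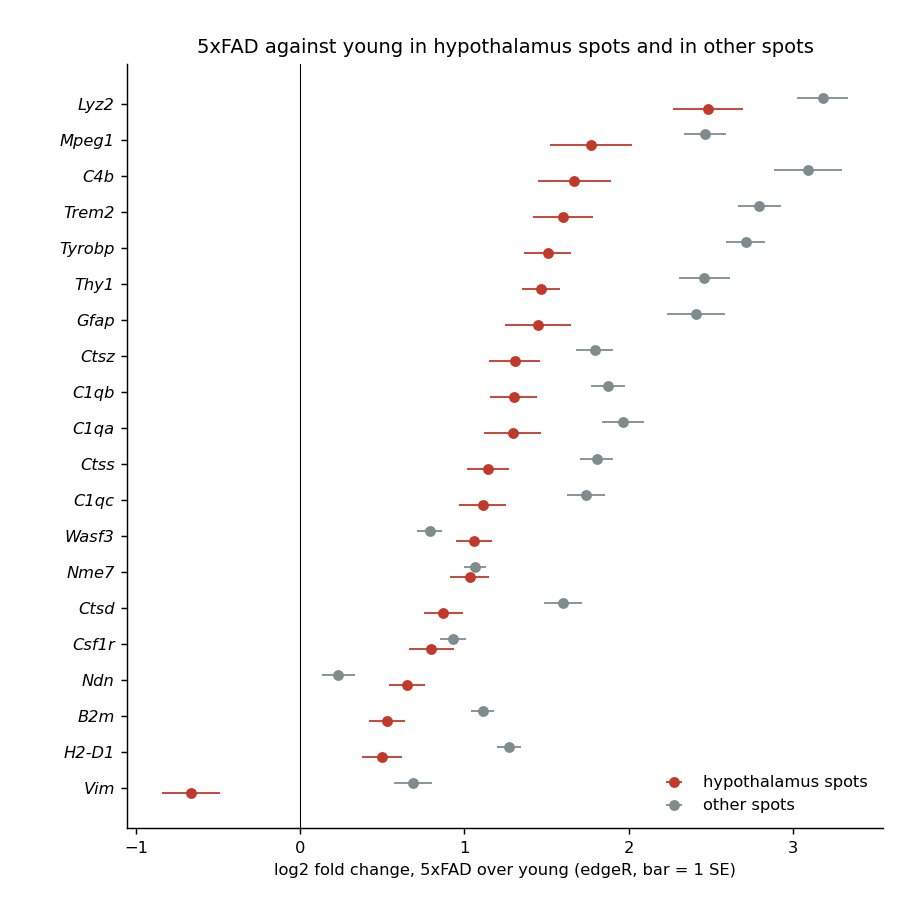
Log2 fold change of 5xFAD over young for 20 genes in hypothalamus spots (red) and in all other spots (grey), with a bar of 1 standard error from the edgeR fit on 6 sections. Lyz2 is at 2.48 and 3.18, Trem2 at 1.60 and 2.80 and Vim at -0.67 and 0.68, while Nme7 is at 1.03 and 1.06 and Wasf3 and Ndn sit higher in the hypothalamus.

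In the aged sections, 9 of 27 tested immediate early genes, 4 of 11 complement genes, 5 of 29 genes of the disease-associated microglial state, all 4 tested hemoglobin genes and the peptide gene Gal were higher than in the young ones, while none of 15 homeostatic microglial genes passed. In all, 32 genes passed, 0.25% of those tested, 30 higher (0.235%) and 2 lower (0.0156%). All 32 kept their call without E4 5xFAD (1.33% of genes called), 29 did so in the marker-rich block of the other 5 sections (1.24%), and 15 were called in every fit that left out 1 section. Those fits called 71 genes without the E3 and 57 without the E4 young section, 44 and 33 without the E3 or E4 aged one, and 178 and 178 without the E3 or E4 5xFAD one, and DESeq2 called 12.

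Of 27 immediate early genes, 9 rose with age in the hypothalamus spots and none fell, with a median of 0.67 log2. Npas4, a transcription factor switched on by neuronal activity, had 11.5 and 6.23 CPM in young, 92.3 and 62.6 in aged and 5.03 and 10.9 in 5xFAD (log2 3.16 ± 0.25, adjusted p = 4e-05). Fos had 30.5 and 40.5 CPM in young, 127 and 116 in aged and 18.96 and 27.3 in 5xFAD (log2 1.802 ± 0.15, adjusted p = 4e-05). Both aged sections are above all 4 others for each gene. Fosb, Egr4, Btg2, Junb, Arc, Dusp1 and Egr1 made up the rest, from log2 0.67 for Egr1 to 2.43 for Fosb. Dusp1 also fell in 5xFAD (log2 -0.87 ± 0.16, adjusted p = 0.039).

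By block, the level of these genes in the aged sections differed. Fos had 217 and 266 CPM in the second block of E3 and E4 aged, against 29.7 and 23.02 in the young sections. In the marker-rich block it had 77.4 and 59.3 in aged, against 32.2 and 47.4 in young. Arc, whose product acts at synapses, had 143 and 131 CPM in the second block of aged sections and 39.7 and 28.1 in the marker-rich block, where the young sections had 29.4 and 34.1. In fits to each block of 5 sections, the aged change of Arc was 1.78 log2 in the second block and 0.08 in the marker-rich block. The difference between blocks was not tested, since the blocks were drawn after the data were seen. Outside the hypothalamus, Fos also ran at 215 and 158 CPM in the aged sections against 17.9 to 57.5 CPM in the other 4 sections, and the test of the difference between hypothalamus and other spots called none of these 9 genes.

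Complement gene C4b ran the other way between blocks. It rose with age (log2 1.66 ± 0.22, adjusted p = 0.0024), as did C1qb (log2 1.03 ± 0.14, adjusted p = 0.0042), C1qa and C1qc, 4 of 11 tested complement genes. In the marker-rich block C4b had 58.04 and 56.2 CPM in E3 and E4 aged against 23.3 and 9.98 in young, and in the second block 26.2 and 29.97 against 16.8 and 18.95. Of 29 genes of the disease-associated state 5 rose, with a median of 0.44, led by Cst7, which was at least 7.64-fold higher against the floor of 3 UMIs, and Lyz2 (log2 2.08 ± 0.22, adjusted p = 0.00033). Of 14 MHC class I genes 2 rose, B2m, the light chain, which had 147 and 129 CPM in young, 221 and 251 in aged and 207 and 207 in 5xFAD (log2 0.81 ± 0.11, adjusted p = 0.0029), and H2-K1 at log2 0.78. Gfap had a change of 1.01 ± 0.203 (adjusted p = 0.067, edgeR), short of the threshold.

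Gal, the gene of galanin, a peptide of arousal and feeding circuits, had 41.3 and 19.8 CPM in young, 202 and 252 in aged and 149 and 20.7 in 5xFAD (log2 3.09 ± 0.44, adjusted p = 0.0044). Both aged sections and E3 5xFAD are high, and the young sections and E4 5xFAD are low. DESeq2 did not call it (adjusted p = 0.62). In the marker-rich block it reached 309.6 and 346 CPM in aged against 44.5 and 18.7 in young. In the fit that included E4 5xFAD it was the only neuropeptide gene of 30 called, beside Trhr, the receptor of thyrotropin-releasing hormone, among 39 hormone receptors (12.5 and 12.2 CPM in young, 33.04 and 26.6 in aged and 14.5 and 7.64 in 5xFAD). The nuclei in each section move with these values: Hmx2, a factor of galanin-rich hypothalamic neurons, stands with Gal, high in both aged sections and E3 5xFAD, so age and plane cannot be told apart for Gal. The other peptides of these spots did not pass in the fit that included E4 5xFAD: Pmch had a change of 1.45 ± 1.01 (adjusted p = 0.91, edgeR), Hcrt of 3.85 ± 1.22 and Cartpt of 1.34 ± 0.39. Without that section, neuropeptide genes other than Gal passed too, in both directions, so Gal does not stand alone there. The median age change of the neuropeptide list was 0.25 with E4 5xFAD and 0.23 without it.

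All 4 tested hemoglobin genes rose with age in the edgeR fit, and DESeq2 called none of them (adjusted p from 0.057 to 1.0). Hba-a1 had 40.4 and 1.98 CPM in young, 155 and 67.3 in aged and 11.99 and 1.09 in 5xFAD, and it was also lower in E4 than in E3 (log2 -1.83 ± 0.31, adjusted p = 0.029), which DESeq2 did not call either (adjusted p = 0.84). The summed level of the 8 blood genes was 585 and 307 CPM in the aged sections and 19.3 to 190.3 in the rest. In the marker-rich block the sum was 815 and 400.1 CPM in aged and 7.53 and 15.4 in young. In the second block it was 186 and 64.5 in aged and 433 and 27.1 in young, and the age change of the 4 genes there was negative, from -1.31 for Hbb-bt to -0.71 for Hbb-bs, and not called. Over all hypothalamus spots the level of blood transcripts thus moves with age, and its part in the other age changes was not tested. The endothelial and mural list had 0 of 21 genes called with age. The 2 genes that fell were Tmem212, of ependyma, and Tcf7l2, a thalamic marker.

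**Figure D4:**
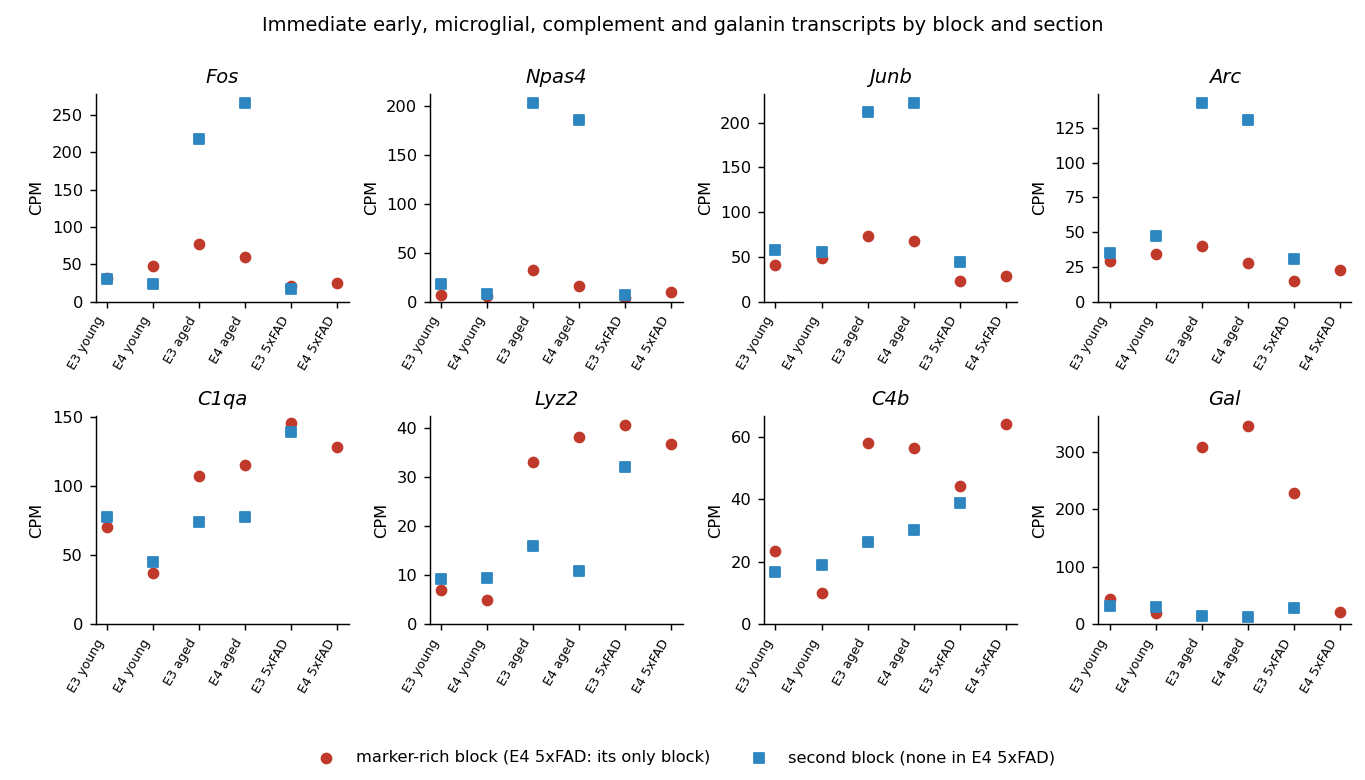
CPM of 4 immediate early genes (top) and of C1qa, Lyz2, C4b and Gal (bottom), 1 point per section, in the marker-rich block (red circles; for E4 5xFAD its only block) and the second block (blue squares, none in E4 5xFAD). Fos and Npas4 stand out in the second block of both aged sections, and C4b and Gal in their marker-rich block.

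The test of the difference in the age effect called 3 genes, 0.0194% of 15469, all lower in the hypothalamus: Avp, Gng8 and Gm5741. Avp was near 0 in both aged sections and in E4 young, as above, so that among the young and aged hypothalamus spots E3 young alone was high. Gng8, a G protein subunit gene of the habenula, had 37.7 and 4.25 CPM in young, 1.62 and 3.48 in aged and 1.16 and 16.4 in 5xFAD, but in E3 young it stood at 8.21 and 2.28 CPM within the 2 blocks, so most of it came from the 15 spots outside them. Fits without 1 section called 37 genes without the E3 and 12 without the E4 young section, 98 and 14 without the E3 or E4 aged one, and 42 and 32 without the E3 or E4 5xFAD one. The other spots alone called 0 of 16305 genes with age (832 at an unadjusted p under 0.05, edgeR). Spots chosen by a like score over thalamic genes called 18 of 12083, so calls with age were not confined to the hypothalamus spots.

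E4 against E3 gave 16 genes in hypothalamus spots, 0.125% of those tested, with 3 higher (0.0235%) and 13 lower (0.102%) in E4. All 16 went the same way in all 3 conditions, all kept their call without E4 5xFAD (0.891% of genes called), 11 did so in the marker-rich block of the other 5 sections (0.467%), and 12 were called in every fit that left out 1 section. Those fits called 37 genes without the E3 and 39 without the E4 young section, 49 and 102 without the E3 or E4 aged one, and 115 and 119 without the E3 or E4 5xFAD one. DESeq2 called 6. The other spots called 2 genes (0.0123%), Eps8l1 higher (0.00613%) and Gm47283 lower (0.00613%).

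Serpina3n, a secreted serine protease inhibitor made by reactive astrocytes, was higher in E4 (log2 1.54 ± 0.24, adjusted p = 0.017). The E4 sections are above the E3 section of the same condition each time, by log2 2.71 in young, 1.70 in aged and 0.57 in 5xFAD. It kept its call in all 6 fits without 1 section, and DESeq2 did not call it (adjusted p = 1.0). It was higher in E4 outside the hypothalamus as well, at 18.2 and 120.3 CPM in young, 32.8 and 147 in aged and 76.4 and 165 in 5xFAD (log2 1.97 ± 0.297), where it did not pass (adjusted p = 0.61, edgeR). Eps8l1, an actin regulator, had 0.656 and 13.9 CPM in young, 0 and 6.96 in aged and 0.967 and 6.001 in 5xFAD (log2 3.75 ± 0.52, adjusted p = 0.0092). Tmem212 was the other gene that was higher.

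Sst was lower in E4, at 973 and 542 CPM in young, 786 and 563 in aged and 692 and 289 in 5xFAD (log2 -0.87 ± 0.12, adjusted p = 0.011). It is the gene whose genotype effect differed from that in the other spots, the only 1 of 15469 called (0.00646%): the difference was -0.801 ± 0.08 (adjusted p = 0.00088, edgeR), with a change of -0.07 ± 0.097 in the other spots. The call of the difference held in all 6 fits that left out 1 section, which called 7 genes without the E3 and 9 without the E4 young section, 59 and 81 without the E3 or E4 aged one, and 15 and 9 without the E3 or E4 5xFAD one. DESeq2 did not call the change within the hypothalamus spots (adjusted p = 0.24). It was -0.85 in the marker-rich block of 5 sections and -0.15 in the second block. The second block, which holds the highest Sst, made up 89 of 187 hypothalamus spots in E3 young and 40 of 192 in E4 young, and 120 of 331 in E3 5xFAD and 0 of 87 in E4 5xFAD, so the makeup of the spots moves with genotype in these 2 pairs. In the aged pair the second block made up near-equal shares, 56 of 188 and 63 of 215, with Sst at 786 CPM in E3 and 563 in E4. The part of the makeup of the spots in the Sst difference was not tested.

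Lrrc17 had 797 and 487 CPM in young, 585 and 352 in aged and 757 and 354 in 5xFAD (log2 -0.86 ± 0.101, adjusted p = 0.0038), lower in E4 in each pair, and 170.4 to 264 CPM in E4 against 300.3 to 456 CPM in E3 in the other spots. Wdfy1 had 44.9 and 13.6 CPM in young, 43.1 and 14.7 in aged and 44.1 and 28.4 in 5xFAD (log2 -1.32 ± 0.18, adjusted p = 0.0092). Tac2, which encodes neurokinin B of reproductive circuits, had 95.1 and 60.05 CPM in young, 131 and 72.3 in aged and 111 and 32.2 in 5xFAD (log2 -1.04 ± 0.16, adjusted p = 0.013), and DESeq2 did not call it (adjusted p = 0.89). Nos1, the neuronal nitric oxide synthase, had 72.5 and 37.7 CPM in young, 82.3 and 53.4 in aged and 76.6 and 31.6 in 5xFAD (log2 -0.92 ± 0.12, adjusted p = 0.0092). In the marker-rich block of 5 sections Tac2 changed by -0.51 and Nos1 by -0.43, and neither passed there. Nrgn, the neurogranin gene of cortical neurons, had a change of -0.72 in all hypothalamus spots and -0.04 in the marker-rich block.

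Gm47283 had the largest change called, 43.6 and 1.699 CPM in young, 89.7 and 2.24 in aged and 118 and 1.64 in 5xFAD (log2 -5.33 ± 0.202, adjusted p = 2e-09), at a few CPM in every E4 section. The mm10 annotation places it on chromosome Y from 90784738 to 90816464, at the end that holds sequence shared with chromosome X, and all 6 mice were female. It had the same split in the other spots (log2 -4.97 ± 0.27). The hemoglobin genes Hba-a1 and Hbb-bs, Alb and the smooth muscle gene Acta2 were lower in E4, each with its highest level in an E3 section.

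Apart from Serpina3n, glial and immune genes gave few calls between genotypes. None of 29 genes of the disease-associated state, 15 homeostatic microglial, 11 complement, 14 interferon response and 14 MHC class I genes passed between E4 and E3, and their medians lay between -0.08 and 0.08. Within the 5xFAD pair alone, where 1 section stands against 1 and no test is possible, E4 over E3 was log2 0.69 for Trem2 (counting interval 0.37 to 1.0), 0.79 for Gfap (0.56 to 1.02) and 0.57 for C4b (0.24 to 0.90). In the young pair the same ratios were -0.09, -0.41 and -0.64. Summed over listed genes, E3 and E4 5xFAD had 5505 and 5867 CPM for the disease-associated state. Complement had 554 and 602, and reactive astrocyte genes 425 and 532. In the marker-rich block of E3 5xFAD and the only block of E4 5xFAD, these sums were 5753 and 5759, 573 and 569, and 469 and 526. The makeup of the spots thus moves with genotype in this pair, and its part was not tested. Human APOE did not pass between genotypes: E4 over E3 was log2 -0.03 in young, 0.17 in aged and 0.04 in 5xFAD (log2 0.04 ± 0.09, adjusted p = 0.95). It was higher in hypothalamus than in other spots of every section, at log2 0.33 (0.09 to 0.498).

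**Figure D5:**
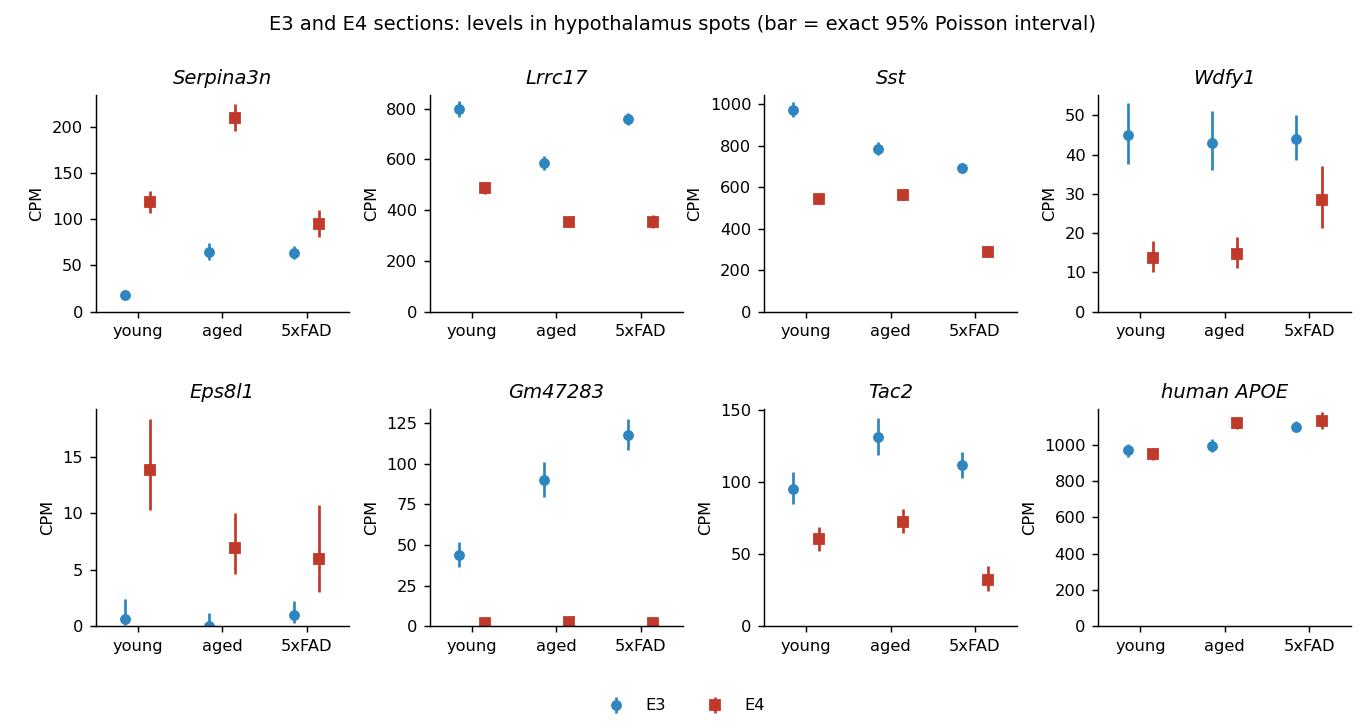
CPM of 8 genes in the hypothalamus spots of E3 (blue circles) and E4 (red squares) sections by condition, each point 1 section with its exact Poisson interval, which covers counting error only. Serpina3n is higher and Lrrc17, Sst, Wdfy1 and Gm47283 lower in E4 in every condition, while human APOE lies between 949 and 1134 CPM throughout.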

How the data were processed

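Polyadenylated RNA was captured on Visium slides from 1 coronal section per group. The deposited matrices hold raw counts, 1 UMI count for each gene in each spot. The submitters' processing notes name Space Ranger 1.3.0, the aligner STAR 2.5.1b and the builds mm10 and GRCh38. The matrix headers name 1 software version for 5 sections and another for E3 5xFAD. Per the labels the 6 samples are separate sections, with 20350968 to 37280734 UMIs over tissue spots. A UMI marks 1 captured molecule near its 3′ end, so counts do not scale with transcript length.

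Spots under the tissue mask with a barcode in the matrix and at least 1000 UMIs were scored and the top 9.0% kept, as the opening of the results describes. UMIs were summed per section over these spots and over the remaining spots. The sums were tested in R 4.3.3 with edgeR 4.0.16 (low counts filtered by filterByExpr, TMM scaling, quasi-likelihood test, Benjamini-Hochberg adjustment at 5.0%). The model held genotype and condition. The difference between hypothalamus and other spots was tested on 12 sums with the section as a block and an interaction for each contrast, again with 2 residual degrees of freedom. The 5 score genes were left out of every test. DESeq2 1.42.0 and the other alternatives are given at the end of the document. The procedure was tested on simulated data. No doublet caller was run, since spots hold several cells.

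Genes were named by rule: the score genes, the 10 largest changes in each direction of each test, members of gene lists, and the 20 genes of highest ratio to other spots. The blocks, and the naming of Hmx2, Penk and Npy, were chosen after their values were seen. The members and lists were chosen with earlier results of these data known. Intervals are exact at 95.0% and cover counting error only. Folds against groups at 0 use a floor of 3 UMIs over the group. Gene positions were matched by Ensembl identifier to the GENCODE vM21 annotation of mm10. Some genes are not reported here.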

Additional observations from a re-analysis of the deposited data

Results flagged for a closer look

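In 14 results the effect of a contrast differed between hypothalamus spots and the other spots of the same sections, by the interaction term of the edgeR fit. Values are the effect in hypothalamus spots minus that in other spots, on the log2 scale. For 5xFAD against young they were -2.30 for Ifi27l2a, -1.36 for C4b, -1.32 for Vim, -1.196 for Tyrobp, -1.18 for Trem2, -1.02 for Pmch, -0.98 for Thy1, -0.77 for H2-D1, -0.73 for Ctsd and 2.35 for Oxt. For aged against young they were -7.85 for Gm5741, -4.41 for Gng8 and -3.18 for Avp. For E4 against E3 the value was -0.80 for Sst. Groups of 1 section allow no search for a section far from others of its group.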

How the results depend on the processing

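All counts below are of genes called for 5xFAD, age and E4 in that order, first in hypothalamus spots (40, 32 and 16 as reported) and then for the difference from other spots (10, 3 and 1 as reported). DESeq2 gave 21, 12 and 6, then 4, 3 and 1. Without a low count filter edgeR gave 157, 151 and 152, then 57, 67 and 44. Members above the 95th percentile gave 26, 18 and 5, then 19, 7 and 2. The percentile of each section alone gave 25, 7 and 2, then 9, 4 and 5. Spots thinned to 2000 UMIs gave 42, 19 and 5, then 34, 34 and 12. The largest block of each section, which was the second block in E3 young alone, gave 11, 4 and 1, then 5, 0 and 1. Its 0 for the difference in age compares with 12 to 98 in fits without 1 section and 3 by DESeq2. Alternatives chosen after seeing the data were the marker-rich block, with 50, 26 and 8, then 23, 37 and 4, the same block in 5 sections without E4 5xFAD, with 147, 156 and 59, then 41, 88 and 20, and the second block in those sections, with 29, 33 and 14, then 24, 16 and 9. Size factors of DESeq2 in edgeR gave 38, 30 and 15, then 10, 3 and 1. Leaving out 1 section gave 56 to 192, 33 to 178 and 37 to 119, then 13 to 44, 12 to 98 and 7 to 81. A section left out leaves 1 group without a section, carried by the additive model, and 1 residual degree of freedom.

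The 5xFAD change of Serpina3n, 0.52 as reported, ran from -0.24 to 1.51 when 1 section was left out and was negative without E3 young (-0.05) and without E3 5xFAD (-0.24). Gfap, at 1.45 as reported, lost its call under DESeq2 (1.47), the section's own percentile (1.47), the largest block (1.72) and the second block (0.61). C4b, at 1.67, lost it under the 95th percentile (1.59), the section's own percentile (1.80) and the second block (1.15), Trem2, at 1.60, in the largest block (1.64) and Cst7 in the second block. The changes of Gfap and C4b were smaller in the second block, and the other values lay near those reported or above them. The causes were not tested. No paired analysis was possible because each group is 1 section, so that no replicate numbers pair the groups. The test of the difference from other spots held the section as a block as reported. E4 5xFAD had the fewest hypothalamus spots, 87, and fits of 6 sections left 2 residual degrees of freedom, which limits precision.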
